A study of Arabidopsis thaliana with 12 samples.

Results

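GI, CCL, AT1G56300 and AT2G47890 are 4 genes of Arabidopsis thaliana whose signals on leaf arrays differed widely between 2 growth stages. GI and CCL are known for daily rhythms. Each of the 4 has a single listed probe set that carries exactly 1 gene, and these 4 are among 13513 such probe sets and 22810 probe sets in all. The genes were chosen by name, with their stage change in these arrays already known, so that change is given as a description and not as a test. The gene list used here names GI (GIGANTEA) and CCL (CCR-like), and gives the other two only by locus. The label of day-phase genes could therefore be set against the annotation for GI and CCL only.

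The plant circadian clock is a network of repressors that peak one after another through the day and night, so that many leaf transcripts rise and fall at set hours. GI is a large nuclear and cytosolic protein of the evening part of this network. Its transcript peaks late in the light period, and the protein acts with the photoreceptor FKF1 to promote flowering in long days and steadies the clock protein ZTL. CCL is a small-protein gene whose mRNA level is rhythmic and whose mRNA stability is itself under clock control. For such genes the level in a leaf depends on the hour of harvest as well as on the age of the plant.

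The 12 arrays came from rosette leaves in 4 groups of 3. The SPH1 RNAi plants carry an RNA interference construct against SPH1, a gene of the S-protein homologue family of small secreted proteins, in the Col-0 background, and were taken at growth stages 1.14 and 1.05. The Col-0 plants without the construct were taken at the same stages, which follow a scale that counts rosette leaves. The greenhouse was kept at 20 °C and 80% humidity with 16 h of light a day, and material of 40 plants was pooled. Neither the promoter of the construct nor the number of transformed lines is stated in the labels used here. The labels used here give no hour of harvest for any array, so an effect of stage and an effect of harvest hour cannot be told apart by design.

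Every array had a trimmed mean signal of 100.01 and between 54.0% and 59.8% of probe sets at a signal of at least 32. Replicate 1 of SPH1 RNAi at stage 1.14 lay apart, with correlations of 0.894 and 0.904 to the other arrays of its group, which had 0.969 between them. Replicate 1 of SPH1 RNAi at stage 1.05 had 0.944 and 0.952, against 0.972 between the other two. Replicates 2 and 3 of SPH1 RNAi at stage 1.14 are titled as repeats, and the labels used here do not say which step was repeated. SPH1 itself (AT4G16295) has no listed probe set, so the targeted transcript was not checked. RCA, the rubisco activase of leaf chloroplasts, had signals between 2797.8 and 5230 on all arrays, and it is the only one of 10 leaf markers with a listed probe set.

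GI was higher at stage 1.14 in both genotypes. Its signal was 347.2, 422.0 and 427.5 in SPH1 RNAi at stage 1.14, and 62.7, 160.1 and 112.6 in SPH1 RNAi at stage 1.05. In Col-0 it was 370.0, 589.6 and 413.2 at stage 1.14, and 100.0, 117.2 and 77.3 at stage 1.05. The stages did not overlap in either genotype. In leaf pools, fewer cells of a type and less RNA per cell cannot be told apart. The log2 change, on the scale of log2(signal + 16), was 1.77 ± 0.27 (SE) in SPH1 RNAi and 2.04 ± 0.27 in Col-0.

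CCL changed more than GI in Col-0. Its signal there was 2489.4, 2737.5 and 2906.6 at stage 1.14, and 231.9, 117.0 and 116.2 at stage 1.05, a log2 change of 4.06 ± 0.59 (SE). In SPH1 RNAi it was 2725.3, 2302.0 and 1890.8 at stage 1.14, and 95.9, 845.4 and 782.4 at stage 1.05, a change of 2.43 ± 0.59. Again the stages did not overlap in either genotype. At stage 1.05 one SPH1 RNAi array lay below all Col-0 arrays of that stage and the other two lay far above them.

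AT1G56300 followed the same course. It had 450.0, 566.9 and 464.8 in SPH1 RNAi at stage 1.14, and 9.6, 139.9 and 103.7 at stage 1.05 (log2 change 2.70 ± 0.48 SE). In Col-0 it had 577.5, 711.9 and 610.9 at stage 1.14, and 16.8, 29.2 and 20.2 at stage 1.05 (4.10 ± 0.48). The array that was low for CCL, SPH1 RNAi at stage 1.05 replicate 1, was the low one here too. With an offset of 4 or 64 in place of 16, the change was 3.06 or 2.03 in SPH1 RNAi and 4.63 or 3.02 in Col-0.

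AT2G47890 was near the floor of the scale in young Col-0 leaves. Its signal in Col-0 was 209.1, 285.9 and 230.0 at stage 1.14, and 6.3, 7.1 and 7.2 at stage 1.05 (log2 change 3.48 ± 0.31 SE). In SPH1 RNAi it was 109.3, 180.9 and 189.6 at stage 1.14, and 6.1, 43.0 and 36.4 at stage 1.05 (2.07 ± 0.31). Replicate 1 of SPH1 RNAi at stage 1.05 was again at the level of Col-0, with replicates 2 and 3 above it. Values under the offset of 16 are close to background, so the log2 change understates the ratio of the signals here. With an offset of 4 or 64 in place of 16, it was 2.57 or 1.28 in SPH1 RNAi and 4.49 or 2.10 in Col-0.

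**Figure D1:**
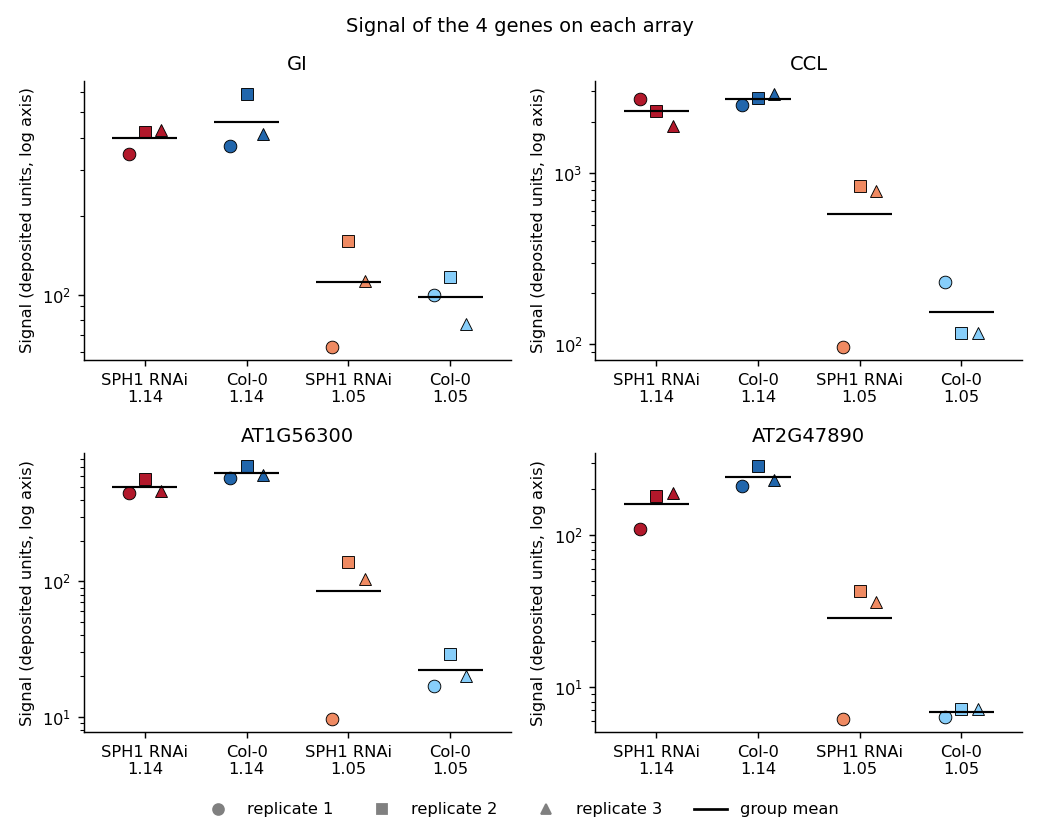
Signal of GI, CCL, AT1G56300 and AT2G47890 on each of the 12 arrays (log axis, deposited units), by group, with a marker shape for each replicate number and a line at the group mean. All stage 1.14 arrays lie above all stage 1.05 arrays in each gene, and the circle of SPH1 RNAi at stage 1.05 (replicate 1) lies below the square and triangle of its group.

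In all 4 genes the stages did not overlap in either genotype. The same was true, in the direction of stage 1.14 above stage 1.05, of 15.8% of the 13263 tested probe sets in SPH1 RNAi and of 30.6% in Col-0. At a limma adjusted p under 0.05, 10.2% of the tested probe sets passed in SPH1 RNAi, 5.78% higher and 4.46% lower at stage 1.14. In Col-0 44.6% passed, 23.7% higher and 21.0% lower. Nothing is read from the 4 genes against these shares, since their stage change chose them. In Col-0, 9 tested probe sets had a larger log2 change than AT1G56300, 12 than CCL, 32 than AT2G47890 and 288 than GI. In SPH1 RNAi the numbers were 10 for AT1G56300, 19 for CCL, 43 for AT2G47890 and 87 for GI. All 4 genes passed the minimum mean signal of 32 over the 12 arrays. AT2G47890 had group means below it in both genotypes at stage 1.05 (28.5 in SPH1 RNAi and 6.87 in Col-0), as AT1G56300 had in Col-0 (22.1), so their place in the test came from stage 1.14.

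**Figure D2:**
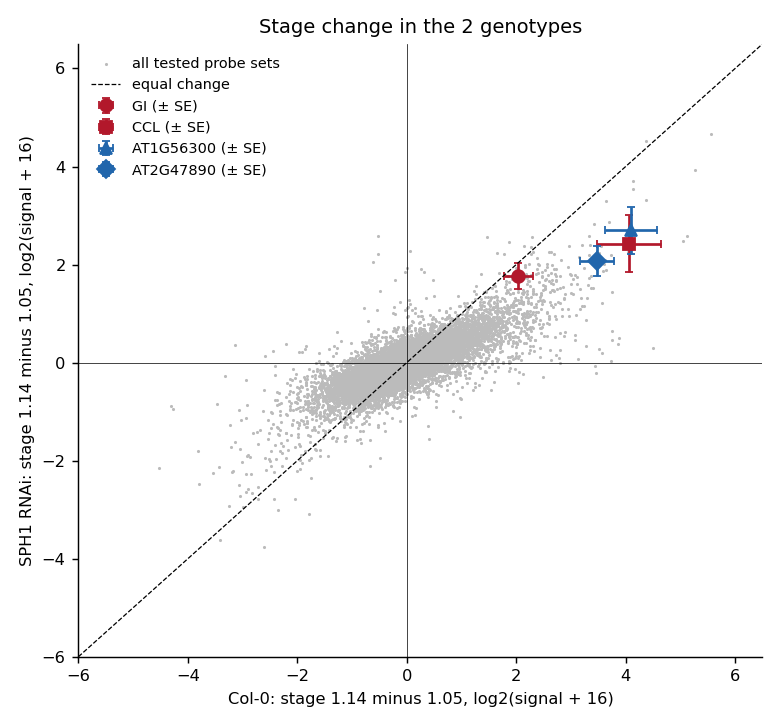
Stage change (stage 1.14 minus 1.05, on log2(signal + 16)) in SPH1 RNAi on the vertical axis against Col-0 on the horizontal axis, for all 13263 tested probe sets (grey) and the 4 genes (± SE). All 4 genes lie below the line of equal change, GI closest to it, at 1.77 in SPH1 RNAi and 2.04 in Col-0.

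The order of the group means was the same in every one of the 4 genes. Col-0 at stage 1.14 was highest, SPH1 RNAi at stage 1.14 next, then SPH1 RNAi at stage 1.05, and Col-0 at stage 1.05 lowest. How many tested probe sets share this order was not counted, so it is not read as a trait of the 4 genes. Replicate 1 of SPH1 RNAi at stage 1.05 lay below the Col-0 mean of that stage in each of them. SPH1 RNAi and Col-0 of the same stage, neighbours in this order, lay within their spread for GI, with 398.9 ± 44.9 in SPH1 RNAi and 457.6 ± 116.3 in Col-0 at stage 1.14, and 111.8 ± 48.7 in SPH1 RNAi and 98.2 ± 20.0 in Col-0 at stage 1.05 (SD, n = 3). The group of SPH1 RNAi at stage 1.05 was the most variable: its SD was 72.4% of its mean for CCL, 79.7% for AT1G56300, 69.0% for AT2G47890 and 43.6% for GI. In the other 3 groups that share ran from 7.2% to 42.9% over the 4 genes.

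The 4 genes were then compared between genotypes within a stage. These differences share arrays with the stage change that chose the genes, so their tests are not independent of that choice. Two-sided tests came from limma, fitted over all 13263 tested probe sets with Benjamini-Hochberg adjustment.

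At stage 1.14 none of the 4 genes passed. The log2 difference, SPH1 RNAi minus Col-0, was -0.17 for GI (limma adjusted p = 0.754, 95% interval -0.75 to 0.41) and -0.24 for CCL (limma adjusted p = 0.847, -1.53 to 1.04). It was -0.35 for AT1G56300 (limma adjusted p = 0.718, -1.40 to 0.70) and -0.57 for AT2G47890 (limma adjusted p = 0.290, -1.24 to 0.10). These intervals use a spread shared by the 4 groups. For CCL the log2 SD was 0.26 in SPH1 RNAi and 0.11 in Col-0 at stage 1.14, but 1.67 in SPH1 RNAi at stage 1.05. With only the 6 arrays compared, limma adjusted p was 0.687 for GI, 0.468 for CCL, 0.283 for AT1G56300 and 0.209 for AT2G47890. Of all tested probe sets 6.76% passed at this stage, 4.7% higher and 2.06% lower in SPH1 RNAi. The 3 SPH1 RNAi arrays lay below the 3 Col-0 arrays for AT1G56300 and AT2G47890, as did those of 10.3% of the tested probe sets, and the genotypes overlapped for GI and CCL. GI had no stable direction: its difference was 0.02 without Col-0 at stage 1.14 replicate 2, the array with 589.6. Without SPH1 RNAi at stage 1.14 replicate 1, the array that stood apart, the stage change in SPH1 RNAi was 1.86 for GI, 2.31 for CCL, 2.76 for AT1G56300 and 2.30 for AT2G47890.

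At stage 1.05 the genotypes overlapped for all 4 genes, while the SPH1 RNAi arrays lay above the Col-0 arrays for 15.9% of the tested probe sets. None of the 4 passed with all arrays, while 5.33% of the tested probe sets did (4.57% higher and 0.762% lower in SPH1 RNAi). CCL had 574.6 ± 415.7 in SPH1 RNAi and 155.0 ± 66.6 in Col-0 (SD, n = 3 each; log2 difference 1.38 ± 0.59 SE, limma adjusted p = 0.215). AT1G56300 had 84.4 ± 67.3 in SPH1 RNAi and 22.1 ± 6.4 in Col-0 (1.05 ± 0.48 SE, limma adjusted p = 0.250). AT2G47890 had 28.5 ± 19.7 in SPH1 RNAi and 6.87 ± 0.49 in Col-0 (0.84 ± 0.31 SE, limma adjusted p = 0.150). Both of these AT2G47890 means, and the Col-0 mean of AT1G56300, lay below the minimum mean signal. Nothing is therefore read from the tests of AT1G56300 and AT2G47890 at this stage. For GI the difference was 0.10 ± 0.27 SE (limma adjusted p = 0.873, 95% interval -0.47 to 0.68).

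These values moved most with a single array. With replicate 1 of SPH1 RNAi at stage 1.05 left out, the log2 difference between genotypes at that stage was 2.34 for CCL (limma adjusted p = 0.000331), 1.86 for AT1G56300 (limma adjusted p = 0.000189) and 1.28 for AT2G47890 (limma adjusted p = 0.00344), and these 3 passed. GI had 0.41 without it (limma adjusted p = 0.316). Over all probe sets, 984 passed without that array, against 707 as reported. Without replicate 2 the differences were 0.87 for CCL, 0.55 for AT1G56300, 0.57 for AT2G47890 and -0.17 for GI, and none passed. Without replicate 3 they were 0.93, 0.74, 0.66 and 0.06 in the same order of genes, and none passed. Leaving out replicate 1 was one of 12 single-array settings, and no label sets that array apart from the other two. Over 20 alternative settings the adjusted p ran from 0.000331 to 0.615 for CCL, from 0.000189 to 0.692 for AT1G56300 and from 0.00344 to 0.496 for AT2G47890. These 3 also passed with all 12 arrays under array quality weights, at 1.94 for CCL (limma adjusted p = 0.0126), 1.37 for AT1G56300 (limma adjusted p = 0.0244) and 1.03 for AT2G47890 (limma adjusted p = 0.00992). Under those weights 1753 probe sets passed in all. The passes of AT1G56300 and AT2G47890 are not read as a difference in any setting. Their Col-0 means at stage 1.05 lay below the minimum mean signal.

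**Figure D3:**
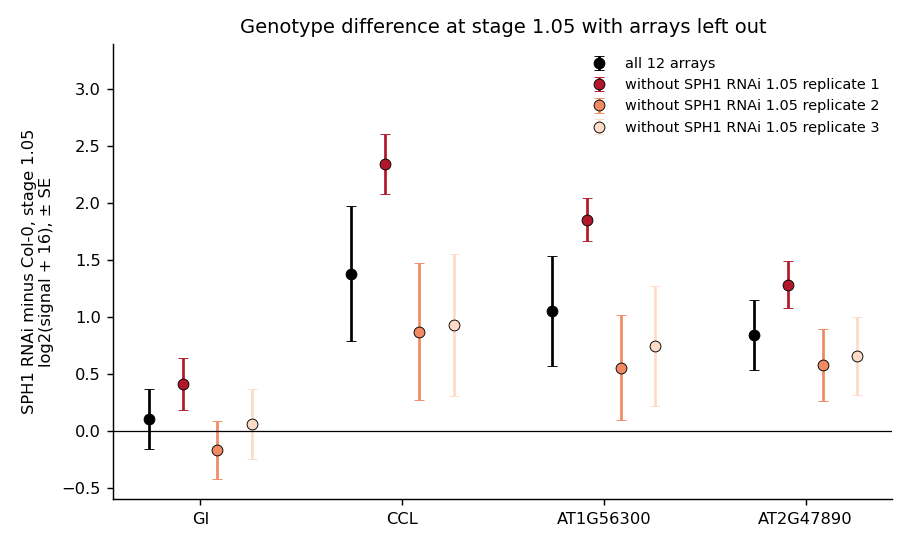
Genotype difference at stage 1.05 (SPH1 RNAi minus Col-0, on log2(signal + 16), ± SE) for the 4 genes, with all 12 arrays and with each SPH1 RNAi array of that stage left out in turn. Without replicate 1 the difference of CCL is 2.34 in place of 1.38 and its SE is smaller, while GI has 0.41 in place of 0.10.

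The interaction of genotype and stage is the stage change in SPH1 RNAi minus that in Col-0. It is formed from the stage changes that chose the genes, so its tests are not independent of that choice in any setting. The interaction was -1.63 ± 0.84 (SE) for CCL, -1.40 ± 0.69 for AT1G56300, -1.41 ± 0.44 for AT2G47890 and -0.27 ± 0.38 for GI. None passed, with limma adjusted p of 0.311, 0.284, 0.0973 and 0.750 in that order, and 3.36% of the tested probe sets did. With the replicate number as a block, AT2G47890 passed (-1.41, limma adjusted p = 0.0396). With array quality weights AT2G47890 (-1.37, limma adjusted p = 0.0106), CCL (-2.38, limma adjusted p = 0.0180) and AT1G56300 (-1.68, limma adjusted p = 0.0328) passed. They also passed with replicate 1 of SPH1 RNAi at stage 1.05 left out, where the interaction was -2.59 for CCL (limma adjusted p = 0.00407), -2.21 for AT1G56300 (limma adjusted p = 0.00235) and -1.86 for AT2G47890 (limma adjusted p = 0.00615). For GI it was -0.58 (limma adjusted p = 0.303). Calls also rose over all probe sets in these settings. For the interaction 446 passed as reported, 523 with the block, 2137 with the weights and 702 without that array. Over 19 alternative settings the adjusted p ran from 0.00407 to 0.553 for CCL, from 0.00235 to 0.522 for AT1G56300 and from 0.00615 to 0.207 for AT2G47890. The low Col-0 means of AT1G56300 and AT2G47890 at stage 1.05 enter the interaction too, so nothing is read from their interaction calls.

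The gap between that array and its group was measured for all probe sets, as the mean of replicates 2 and 3 minus replicate 1 of SPH1 RNAi at stage 1.05 on log2(signal + 16). This gap is a difference within a group, was looked for after the values of the 4 genes had been seen, and has no test. It was 2.89 for CCL, 2.42 for AT1G56300, 1.33 for AT2G47890 and 0.94 for GI. Over the 13263 tested probe sets its median was 0.04 and its SD 0.40, and 203 probe sets (1.53%) had a gap of 1 or more. Only 7 tested probe sets had a larger gap than CCL, 10 than AT1G56300, 86 than AT2G47890 and 240 than GI. Those above CCL with a listed gene were AT5G48570 (3.19), AT2G29500 (3.18), AT5G12110 (2.95) and CYP71B26 (2.92). Their log2 stage changes in Col-0 were -2.04, -0.67, -2.99 and 1.27 in that order. A large gap was thus not limited to genes that rose with stage, though others such as AT1G70820 (2.3) did rise (2.88). HYH, a bZIP factor related to the light regulator HY5, went the other way from CCL in SPH1 RNAi at stage 1.05. It had 334.7 on replicate 1 and 107.1 and 108.1 on replicates 2 and 3.

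Each SPH1 RNAi array was also placed between the Col-0 stages, where 0% is the Col-0 mean at stage 1.05 and 100% the Col-0 mean at stage 1.14 on the log2 scale. At stage 1.05, replicate 1 was at -25.6% for GI, -13.4% for CCL, -13.6% for AT1G56300 and -1.4% for AT2G47890, so it lay below the Col-0 mean in all of them. Replicate 2 was at 31.4%, 59.1%, 49.9% and 39.3% for the same genes, and replicate 3 at 9.2%, 56.4%, 40.6% and 34.4%. For comparison, 1247 probe sets passed and were at least 2-fold higher at stage 1.14 in Col-0, the 4 genes among them. Their median position was 23.5% on replicate 1 (middle 50% from 0.0% to 57.2%), 44.1% on replicate 2 and 38.2% on replicate 3. On replicate 1 all 4 genes lay below the middle 50% of these probe sets, and on replicates 2 and 3 all but GI on replicate 3 lay within it.

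At stage 1.14 the SPH1 RNAi arrays lay between 70.5% and 100.3% for the 4 genes. The medians of the 1247 probe sets on these arrays were 95.5%, 81.6% and 81.0% for replicates 1, 2 and 3. The 4 genes were thus close to the bulk of stage-raised probe sets in older leaves, within its middle 50% on each array.

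**Figure D4:**
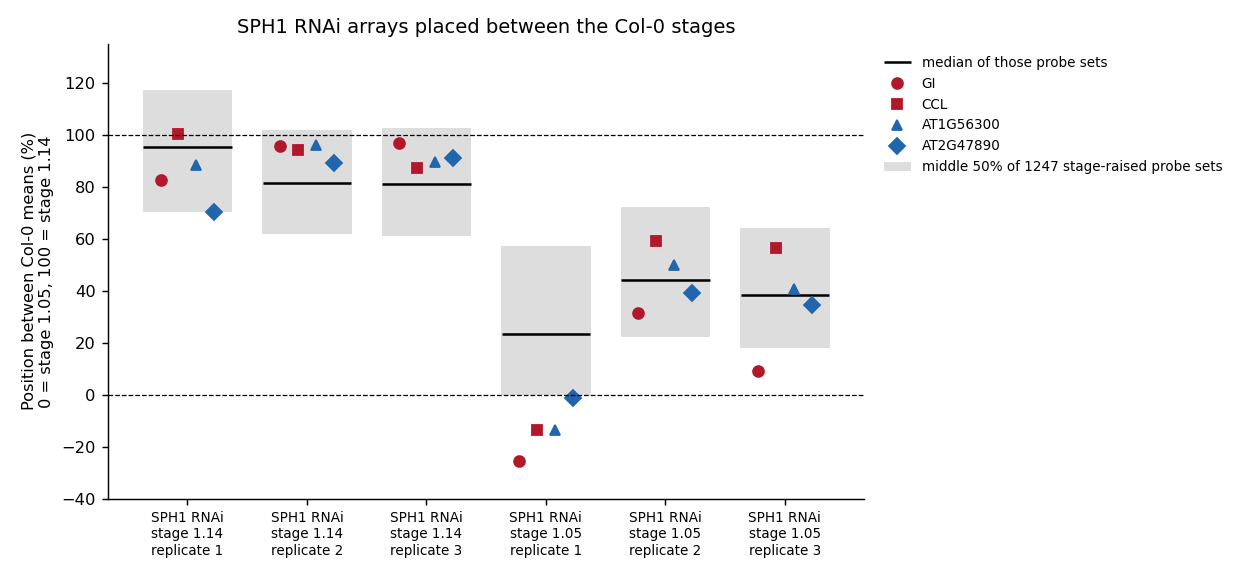
Position of each SPH1 RNAi array between the Col-0 means of stage 1.05 (0%) and stage 1.14 (100%) for the 4 genes, with the median and middle 50% of 1247 probe sets that were at least 2-fold higher at stage 1.14 in Col-0. At stage 1.05 all 4 genes are below 0% on replicate 1 and between 9.2% and 59.1% on replicates 2 and 3.

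Among themselves, the 4 genes had Pearson correlations of 0.930 to 0.987 over the 12 arrays, which share the large step between stages. After the mean of each group was taken away, r was 0.898 between AT1G56300 and AT2G47890, 0.878 between CCL and AT1G56300 and 0.690 between GI and CCL. Those values rest in part on SPH1 RNAi at stage 1.05. Over the 9 arrays of the other 3 groups, a setting chosen after the data were seen, these values were lower. GI had r of 0.680 with AT1G56300, against 0.837 over all 4 groups, and 0.656 with AT2G47890, against 0.857. AT1G56300 with AT2G47890 had 0.504. CCL had -0.019 with GI, -0.445 with AT1G56300 and -0.364 with AT2G47890 there. These are descriptions of few arrays.

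The probe sets most like each gene were ranked by r over the 12 arrays, among 7094 other tested probe sets with exactly 1 gene. For GI they were AT2G39920 (0.987), DPE1 (0.986), AT1G21680 (0.986), BGLU44 (0.983) and AT4G30660 (0.979). For CCL they were VPS20.1 (0.988), AT3G47160 (0.983), AT2G38000 (0.983), AT4G18930 (0.981) and AT3G50210 (0.980). For AT1G56300 they were AT4G18930 (0.988), AT2G47890 (0.987), AT2G41705 (0.984), AT4G16330 (0.981) and AT1G22570 (0.980). For AT2G47890 they were AT1G21680 (0.990), AT1G22570 (0.988), AT2G39920 (0.987), AT1G56300 (0.987) and AT4G18930 (0.986). AT4G18930, which appears for 3 of the 4 genes, averaged 646.7 in SPH1 RNAi and 695.8 in Col-0 at stage 1.14, and 224.2 in SPH1 RNAi and 110.1 in Col-0 at stage 1.05.

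Such likeness was common, because stage is a large step in these arrays: r was at least 0.9 for 190 probe sets with GI (2.68%), 272 with CCL (3.83%), 280 with AT1G56300 (3.95%) and 302 with AT2G47890 (4.26%). The lowest r was with AT1G51650 (-0.954) and AT3G07910 (-0.948) for GI, and with the sugar transporter SWEET2 (-0.981) and AT3G50560 (-0.981) for CCL. It was with ZW9 (-0.975) and AT5G26790 (-0.969) for AT1G56300, and with TRM82 (-0.982) and AT1G79260 (-0.973) for AT2G47890. SWEET2 averaged 90.8 in SPH1 RNAi and 78.4 in Col-0 at stage 1.14, and 186.9 in SPH1 RNAi and 300.8 in Col-0 at stage 1.05.

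Few other clock genes have a listed probe set. Of 14 loci listed as evening clock genes 3 were tested, of which GI was chosen for its stage change. The other two had higher signals at stage 1.14 in both genotypes, with no overlap between stages, as had 15.8% of all tested probe sets in SPH1 RNAi and 30.6% in Col-0. They reached the minimum mean signal of 32 only through stage 1.14, so their stage change is described without a test. COR27, a cold-regulated gene that also acts in the clock, had 147.9, 42.3 and 45.7 in SPH1 RNAi at stage 1.14, and 1.9, 1.8 and 0.9 at stage 1.05 (log2 change 2.26 ± 0.32 SE). In Col-0 it had 140.2, 93.3 and 122.6 at stage 1.14, and 8.9, 2.3 and 5.7 at stage 1.05 (2.63 ± 0.32 SE). AT4G33980 had 170.7, 29.6 and 53.7 in SPH1 RNAi at stage 1.14, and 6.1, 0.8 and 0.5 at stage 1.05 (2.20 ± 0.39 SE). In Col-0 it had 219.5, 123.2 and 177.9 at stage 1.14, and 2.0, 3.9 and 1.4 at stage 1.05 (3.33 ± 0.39 SE). Both were near background in all young leaves, the low and the high arrays of the 4 genes alike. At stage 1.14 both were highest among the SPH1 RNAi arrays on replicate 1, as was CCL. GI, AT1G56300 and AT2G47890 were lowest on that replicate. Without that array, which lay apart from its group, the change in SPH1 RNAi was 1.77 for COR27 and 1.62 for AT4G33980. With an offset of 4 or 64 in place of 16, the change in SPH1 RNAi was 3.68 or 1.04 for COR27 and 3.53 or 1.05 for AT4G33980.

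Of 14 loci listed as morning clock genes only AT5G52660 was tested, and it did not pass. Its signal was 63.8, 78.5 and 73.9 in SPH1 RNAi at stage 1.14, and 64.3, 57.7 and 79.6 at stage 1.05. In Col-0 it was 73.7, 104.8 and 71.7 at stage 1.14, and 62.4, 81.9 and 82.5 at stage 1.05. The stages overlapped in both genotypes and the sign of the change was not stable, with log2 changes of 0.09 in SPH1 RNAi (limma adjusted p = 0.765, 95% interval -0.26 to 0.44) and 0.11 in Col-0 (limma adjusted p = 0.610, -0.24 to 0.46). The core morning genes CCA1, LHY, PRR9 and PRR7 and the evening genes TOC1, PRR5, LUX and ELF4 were not analysed here, so the phase of the clock on each array was not read.

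Both measured genes of starch turnover, of 13 loci listed, rose with stage, as did 5.78% of all tested probe sets in SPH1 RNAi and 23.7% in Col-0, so 2 genes say little of the list. DPE1, the disproportionating enzyme of starch breakdown, was among the genes most like GI. It had 128.5, 129.8 and 140.7 in SPH1 RNAi at stage 1.14, and 23.0, 74.4 and 38.4 at stage 1.05 (log2 change 1.37, limma adjusted p = 0.00582). In Col-0 it had 160.9, 200.5 and 151.9 at stage 1.14, and 48.5, 49.3 and 34.5 at stage 1.05 (1.64, limma adjusted p = 0.000201). PWD (AT5G26570), the phosphoglucan water dikinase that primes starch for breakdown, had log2 changes of 0.94 in SPH1 RNAi (limma adjusted p = 0.0197) and 1.29 in Col-0 (limma adjusted p = 0.000462). The PWD call in SPH1 RNAi was lost without replicate 1 (0.90) or 3 (0.85) of SPH1 RNAi at stage 1.05 and without replicate 2 (0.87) or 3 (0.82) of SPH1 RNAi at stage 1.14, with limma adjusted p of 0.0504 to 0.0672. In all, this PWD call was lost in 6 of 20 settings. The PWD change was smallest, at 0.58, without both arrays titled as repeats. DPE1 was lowest on SPH1 RNAi at stage 1.05 replicate 1, as the 4 genes were, and PWD was not.

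**Figure D5:**
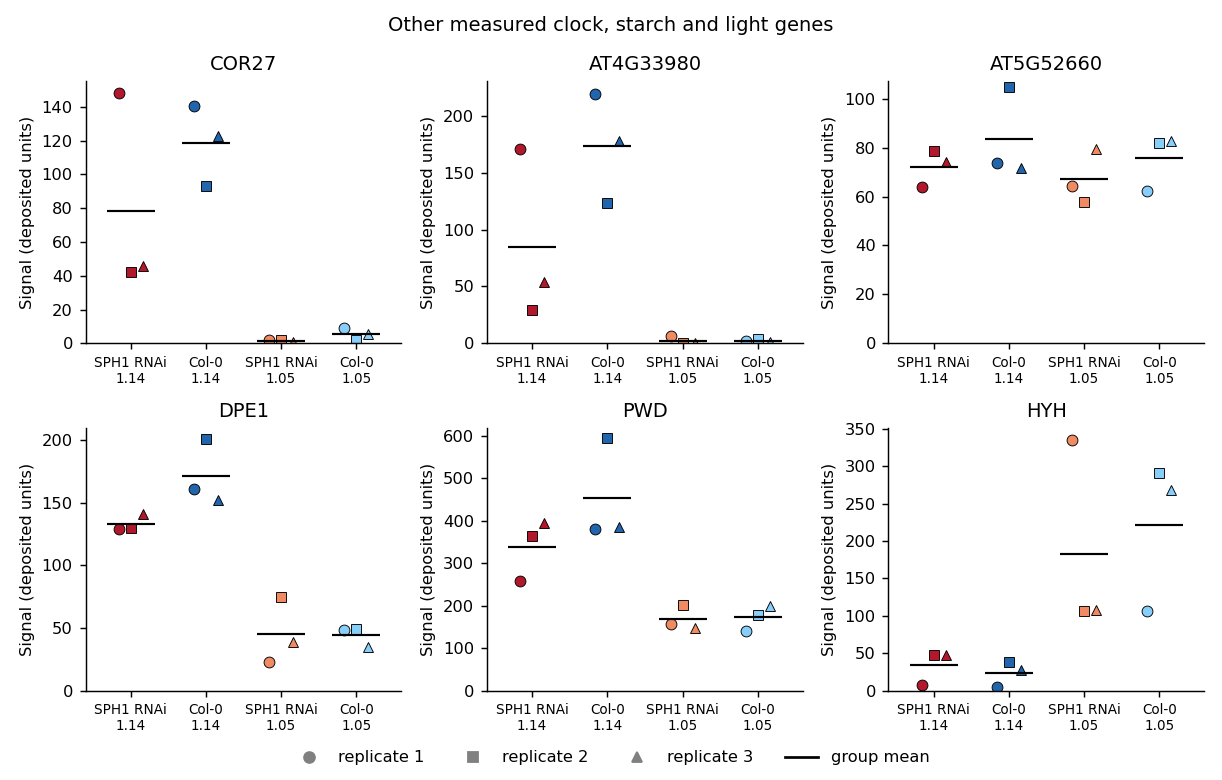
Signal of COR27, AT4G33980, AT5G52660, DPE1, PWD and HYH on each of the 12 arrays (linear axis from 0, deposited units), with a marker shape for each replicate number and a line at the group mean. COR27, AT4G33980, DPE1 and PWD are higher at stage 1.14 in both genotypes, HYH is lower, and AT5G52660 overlaps between stages.

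HYH was the one tested gene of 13 loci for photoreceptors and light signalling, and it was lower at stage 1.14, where 4.46% of all tested probe sets were lower in SPH1 RNAi and 21.0% in Col-0. Its mean in Col-0 at stage 1.14, 23.4, was below the minimum of 32, so the Col-0 change is described without a test. It had 7.3, 47.8 and 48.2 in SPH1 RNAi at stage 1.14, and 334.7, 107.1 and 108.1 at stage 1.05 (log2 change -1.94 ± 0.53 SE, limma adjusted p = 0.0385). In Col-0 it had 5.1, 38.1 and 26.9 at stage 1.14, and 105.8, 290.9 and 268.2 at stage 1.05 (-2.59 ± 0.53 SE). The call in SPH1 RNAi was lost in 5 of the 12 single-array settings. With replicate 1 of the SPH1 RNAi arrays left out, the change was -1.45 where the array was that of stage 1.14 (limma adjusted p = 0.104) and -1.44 where it was that of stage 1.05 (limma adjusted p = 0.133). The change was -2.18 without replicate 3 of SPH1 RNAi at stage 1.05, and -1.94 without replicate 3 of Col-0 at stage 1.14 or 1.05, with limma adjusted p of 0.0521 to 0.0553. Replicate 1 was the low array in 3 of the 4 groups and the high one in SPH1 RNAi at stage 1.05. Across probe sets, with group means taken away, the replicate 1 arrays of those 3 groups correlated at 0.49, 0.3 and 0.23. With replicate 1 of SPH1 RNAi at stage 1.05 they had 0.01, 0.02 and 0.03.

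Of 16 loci listed for vegetative phase and age, 2 were tested. SNZ, an AP2-type repressor of flowering, had log2 stage changes of -0.62 in SPH1 RNAi (limma adjusted p = 0.0529) and -0.68 in Col-0 (limma adjusted p = 0.0103), so it fell in Col-0. The 2 changes differed by an interaction of 0.06 (limma adjusted p = 0.937), and SNZ passed in SPH1 RNAi too without replicate 2 of stage 1.14 (-0.79, limma adjusted p = 0.0240). AGL24, a MADS-box promoter of flowering, did not pass in either genotype, at 0.34 in SPH1 RNAi (limma adjusted p = 0.524) and -0.81 in Col-0 (limma adjusted p = 0.0609), but passed in Col-0 without replicate 3 of stage 1.14 (-0.99, limma adjusted p = 0.0492). At stage 1.14 SNZ averaged 28.9 in SPH1 RNAi and AGL24 16.6 in Col-0, both below the minimum of 32. AGL24 missed that minimum over all arrays without SPH1 RNAi at stage 1.14 replicate 1, where it had 94.0. Nothing is read from the AGL24 call, from the SNZ pass in SPH1 RNAi or from the SNZ interaction. RCA, whose transcript is also known to be rhythmic, had -0.44 in SPH1 RNAi (limma adjusted p = 0.124) and -0.32 in Col-0 (limma adjusted p = 0.156). None of the 10 loci listed for dark and sugar starvation had a listed probe set. AT2G47890 and CCL were the members that stood in the list of B-box proteins, as 1 of 27 loci, and in that of clock-driven outputs, where RCA was the other of 2 tested among 14.

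Other values moved with stage beside the 4 genes. The root markers PYK10, a beta-glucosidase, and JAL22, a lectin, were the 2 of 9 root loci with a listed probe set. Their summed signal was 46.5 to 385.2 in SPH1 RNAi and 21.0 to 28.4 in Col-0 at stage 1.14, and 374.1 to 646.9 in SPH1 RNAi and 388.9 to 656.8 in Col-0 at stage 1.05. RNA quality was read from the actin control probe sets, as the log2 signal at the 3′ end minus that at the 5′ end, which was 1.23 ± 0.33 in SPH1 RNAi and 0.99 ± 0.08 in Col-0 at stage 1.14. At stage 1.05 it was 2.04 ± 0.78 in SPH1 RNAi and 1.85 ± 0.41 in Col-0 (SD, n = 3). Their part in the stage change of the 4 genes was not tested. Within SPH1 RNAi at stage 1.05, replicate 1 had an actin ratio of 2.17, between 2.75 on replicate 2 and 1.21 on replicate 3, and the highest root marker sum, 646.9.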

How the data were processed

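The deposited table holds 1 linear intensity per probe set on each of 12 Affymetrix ATH1 arrays of labelled cRNA, per the labels. The values show a common trimmed mean of 100.01 per array, and no source used here names the summarising software. Groups follow the source names. SPH1 RNAi at stage 1.14 replicate 3 lacks the tag for the construct and was grouped by its source name.

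The 64 control probe sets were left out. Probe sets with a mean of at least 32 (13263) were fitted as log2(signal + 16) in 1 model of 4 groups with limma 3.58.1 (lmFit, eBayes with trend) in R 4.3.3, adjusted by Benjamini-Hochberg and called under 0.05. On simulated data the test found 84 of 100 planted log2 changes of 1 at stage 1.05, 77 at stage 1.14 and 40 for the interaction. The simulated noise had an SD set per probe set and equal in the 4 groups. It does not tell how often the test finds a change in genes with unequal spread. CCL was such a gene, with a log2 SD of 1.67 in SPH1 RNAi and 0.52 in Col-0 at stage 1.05. Gene names come from the listed probe sets and the TAIR10.1 gene list, with no coordinates. Named genes are the 4 members, the 5 most and 2 least alike by r, all measured clock-list genes and up to 4 per other list. Members and lists were chosen with earlier results of these data known. Nothing in the labels says whether replicates are separate growths, so p-values cover the spread among arrays only and precision is limited by how few they are. Alternatives were the offset, the filter, quantile normalization, array weights, fewer arrays, a replicate block and single arrays left out.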

Additional observations from a re-analysis of the deposited data

Results flagged for a closer look

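AT1G69570, from the list for photoperiod and flowering, was the one named gene whose stage change differed between the genotypes by the interaction term, -1.07 ± 0.25 (SE; limma adjusted p = 0.0375). It had 69.5, 67.0 and 61.9 in SPH1 RNAi at stage 1.14 and 104.7, 71.3 and 79.3 at stage 1.05, a log2 change of -0.29 ± 0.17 (limma adjusted p = 0.305). In Col-0 it had 114.2, 82.0 and 86.9 at stage 1.14 and 64.4, 40.0 and 41.7 at stage 1.05, a log2 change of 0.78 ± 0.17 (limma adjusted p = 0.00321). The interaction no longer passed in 10 of 19 settings, with limma adjusted p from 0.00649 to 0.102 over all of them. Of these settings 8 left out 1 array: replicates 2 and 3 of SPH1 RNAi at both stages and of Col-0 at stage 1.05, and replicates 1 and 3 of Col-0 at stage 1.14 (-1.17 to -0.94 with 1 of them left out, limma adjusted p of 0.055 to 0.102). Of 15 loci in that list this was the only one tested, since AT2G34140 stayed between 1.4 and 4.6 on all arrays. Groups of 3 arrays are too small for the check on outlying samples.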

How the results depend on the processing

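For GI, CCL, AT1G56300 and AT2G47890, all 160 settings of the stage change kept its direction, from 1.46 to 2.04 for GI, 1.47 to 2.94 for CCL, 1.89 to 3.20 for AT1G56300 and 1.63 to 2.34 for AT2G47890 in SPH1 RNAi with single arrays left out. The CCL change in SPH1 RNAi chose the gene, so its p-value is not read as support in any setting. Its limma adjusted p was above 0.05 in 5 of 20 settings. It was 0.0505 without the filter and 0.0917 with only the 6 arrays compared. Without SPH1 RNAi at stage 1.14 replicate 1 or 2 it was 0.055 or 0.0513. The remaining setting left out both arrays titled as repeats, where the change was 2.69. Of 236 settings of their genotype differences and interactions, 218 kept the direction and the side of the threshold, 13 passed where the reported value did not and 5 changed sign. The genotype difference of GI at stage 1.14 was 0.01 with array quality weights and 0.02 without Col-0 replicate 2 (range -0.30 to 0.02 with single arrays left out). That of CCL at stage 1.14 was 0.01 without both arrays titled as repeats. That of GI at stage 1.05 was -0.17 and -0.04 without SPH1 RNAi replicate 2 and Col-0 replicate 3 (range -0.17 to 0.41). Correlations of deviations with SPH1 RNAi at stage 1.05 left out turned to -0.019, -0.445 and -0.364 for CCL with GI, AT1G56300 and AT2G47890. For the genes of the lists, 379 of 417 settings kept direction and call, 25 no longer passed (9 for HYH and 6 for PWD in SPH1 RNAi, 10 for the AT1G69570 interaction), 10 passed where the reported value did not (SNZ in SPH1 RNAi and AGL24 in Col-0) and 3 changed sign. These were all AT5G52660. Its change was -0.05 in SPH1 RNAi without both arrays titled as repeats. In Col-0 it was -0.06 with array quality weights and -0.04 without Col-0 at stage 1.14 replicate 2. With single arrays left out the Col-0 change ran from -0.04 to 0.19.

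Replicate numbers paired some arrays only: 7 of 18 same-numbered pairs had a correlation of deviations over 0.1 (from -0.25 to 0.49). With the replicate number as a block, 1362, 5941, 998, 731 and 523 probe sets passed for the stage change in SPH1 RNAi, that in Col-0, the genotype difference at stage 1.14, that at stage 1.05 and the interaction, against 1358, 5919, 896, 707 and 446 without it. The interaction of AT2G47890, -1.41, had a limma adjusted p of 0.0396 with the block, the one call of the 4 genes that it changed. Among the list genes the block also let SNZ in SPH1 RNAi (limma adjusted p = 0.0258) and AGL24 in Col-0 (limma adjusted p = 0.0133) pass.

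Counts of probe sets past the threshold moved by over 1.5 times in several settings. With only the 6 arrays compared they were 462 for the stage change in SPH1 RNAi and 154 for the genotype difference at stage 1.14. With array quality weights they were 3345 and 1753 for the genotype difference at stages 1.14 and 1.05 and 2137 for the interaction. Without both repeated hybridisations they were 2147 for the stage change in SPH1 RNAi, 1756 for the genotype difference at stage 1.14 and 856 for the interaction, with a single array left in SPH1 RNAi at stage 1.14, assumed to vary like the others. Without the filter the interaction had 236. With single arrays left out the counts ran from 680 to 1496 for the stage change in SPH1 RNAi, from 4657 to 6412 in Col-0, within 1.5 times of the reported count, from 382 to 1098 and from 366 to 1056 for the genotype difference at stages 1.14 and 1.05, and from 119 to 702 for the interaction. Apart from the arrays left out, the causes were not tested.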
